A study of Mus musculus with 2 samples.

Results

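The genes described here are the coreceptor genes Cd4, Cd8a and Cd8b1 and the lineage factor genes Zbtb7b and Runx3. They were chosen by name as the genes that set the CD4 and CD8 identity of a T cell, and all 5 were found among the 28009 genes listed in both libraries. The level, the share of cells and the joint detection of these RNAs were compared between IL-10-producing CD4+ T cells of spleen and small intestine.

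IL-10-producing (eGFP+) CD4+ T cells, Foxp3+ cells included, were sorted from mice that carry an IL-10 eGFP and a Foxp3 mRFP reporter, and their RNA was counted per cell with droplets (10x Genomics). All mice received anti-CD3 (clone 2C11) in 2 injections and were killed 4 h after the second, and the methods give an age of 8 to 16 weeks. There was 1 library of spleen and 1 of small intestine, with no library of untreated mice, and the number of mice behind each library is not given in the sources used here. The methods describe the isolation of intraepithelial and of lamina propria lymphocytes, and which of these entered the intestinal library is not given. With 1 library per tissue there is no replicate, so no test is given. All intervals are exact 95% intervals that cover counting error only.

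The coreceptors CD4 and CD8 bind MHC class II and class I molecules and bring the kinase LCK to the T cell receptor. CD8 is made either as a heterodimer of CD8α (Cd8a) and CD8β (Cd8b1), which is the coreceptor of conventional cytotoxic T cells, or as a homodimer of CD8α, which is known from activated and intraepithelial T cells of the gut. CD8β needs CD8α to reach the cell surface. ThPOK, the product of Zbtb7b, maintains the CD4 helper lineage, and RUNX3 silences Cd4 and opens the Cd8 genes in the CD8 lineage. In the intestinal epithelium, mature CD4+ T cells are known to lose ThPOK, gain RUNX3 and acquire CD8α.

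On the GRCm38 assembly (GENCODE vM21), Cd8b1 (ENSMUSG00000053044) lies on the plus strand at chr6:71322788-71337494 and Cd8a (ENSMUSG00000053977) on the same strand at chr6:71373427-71379173, 35.9 kb downstream with 4 annotated genes between them. Their annotated transcripts share no run of more than 12 bases. Cd4 (ENSMUSG00000023274) lies on the minus strand at chr6:124864692-124888221 with no annotated gene overlapping it. Zbtb7b (ENSMUSG00000028042) lies on the minus strand at chr3:89377644-89394776, where the gene Gm15417 overlaps it on the opposite strand. Runx3 (ENSMUSG00000070691) lies on the plus strand at chr4:135120652-135177990, where Gm16224 overlaps it on the opposite strand.

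RUNX proteins act on several of these genes, so the 250 bases before each annotated start were searched for the core RUNX motif, TGTGGT on either strand (ACCACA when read on the other strand). RefSeq windows on GRCm38.p6 were at hand for 3 of the 5 genes, namely Zbtb7b, Runx3 and Cd8a, with 5 windows in all. The motif was present in 2 of the 5 windows, against 14.05% of the 32851 windows of all genes. The windows of Runx3 and Zbtb7b that hold it and the window of Cd8a, which does not, are shown 5′ to 3′ on the strand of the gene, with the motif in capitals. They are shown because they are the start regions of both lineage factors and of the coreceptor gene that differed most between the tissues.
Runx3, chr4:135120395-135120644, plus strand: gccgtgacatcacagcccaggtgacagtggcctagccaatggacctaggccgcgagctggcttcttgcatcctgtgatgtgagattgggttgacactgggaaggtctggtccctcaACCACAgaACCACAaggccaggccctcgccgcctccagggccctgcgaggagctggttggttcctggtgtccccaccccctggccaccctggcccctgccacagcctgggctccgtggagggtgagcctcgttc
Zbtb7b, chr3:89387672-89387921, minus strand: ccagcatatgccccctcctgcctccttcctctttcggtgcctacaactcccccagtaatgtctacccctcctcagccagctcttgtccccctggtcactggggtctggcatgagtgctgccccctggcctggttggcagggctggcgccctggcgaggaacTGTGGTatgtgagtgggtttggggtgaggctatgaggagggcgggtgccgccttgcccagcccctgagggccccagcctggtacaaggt
Cd8a, chr6:71373177-71373426, plus strand: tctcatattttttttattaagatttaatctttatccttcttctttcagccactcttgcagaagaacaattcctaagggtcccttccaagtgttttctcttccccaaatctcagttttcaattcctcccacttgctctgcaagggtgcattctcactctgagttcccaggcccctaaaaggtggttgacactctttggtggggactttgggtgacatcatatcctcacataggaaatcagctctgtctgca
The Runx3 window holds 2 copies, which begin 134 and 126 bases before the start, and the Zbtb7b window holds 1 copy, 89 bases before it. These matches describe the letters of the windows, and no binding was measured here.

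The deposited counts are of unique molecular identifiers (UMIs), each of which stands for 1 captured RNA molecule. After the filters on cells, 1277 cells with 5032225 UMIs remained from the small intestine and 1468 cells with 9151420 UMIs from the spleen. The libraries shared 0 cell barcodes. Intestinal cells had a median of 3696 UMIs and splenic cells one of 5398, which is 1.46 times as many. A share of cells with a UMI grows with depth, so each share is given as deposited and at equal depth, for which 2094 UMIs were drawn at random from each cell. Groups of cells by detected RNA were made anew from the UMIs drawn. A group at equal depth is therefore not the same set of cells as the group of that name as deposited. There remained 1149 intestinal and 1438 splenic cells, with 128 and 30 shallower cells left out, and 1 UMI in such a cell equals 478 CPM, or UMIs per 1000000 UMIs. The genes Cd3d, Cd3e and Cd3g of the T cell receptor complex were detected in both libraries, within a 2-fold difference between them. The receptor constant genes that separate αβ from γδ T cells were not among the listed genes and were not analysed here.

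RNA of both CD8 chains was found in the small intestine, whereas in the spleen there was RNA of the β chain and none of the α chain. Cd4 and Runx3 were also higher in the small intestine, while Zbtb7b differed by no more than about counting error. Levels are given in CPM over the summed UMIs of the kept cells of a library. Intestinal Cd4 was at 399 CPM (382 to 417) and splenic Cd4 at 208 CPM (199 to 218), a ratio of 1.92 (1.80 to 2.04). Both libraries thus held abundant RNA of the coreceptor the cells were sorted on.

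Cd8a had 1009 UMIs in the small intestine, or 200.5 CPM (188 to 213), and 0 UMIs in the spleen, where the upper bound was 0.403 CPM. By the exact lower bound of the ratio, Cd8a was at least 497-fold higher in the small intestine, and the fold against a floor of 3 UMIs in the splenic library (0.328 CPM) was 612. Cd8b1 had 767 UMIs, or 152 CPM (142 to 164), in intestinal cells and 126 UMIs, or 13.8 CPM (11.5 to 16.4), in splenic cells, a ratio of 11.1 (9.16 to 13.5). The pair of genes for the CD8 dimer therefore parted in the spleen, where Cd8b1 alone was detected.

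Of the lineage factors, Runx3 was at 249 CPM (235 to 263) in intestinal and 76.7 CPM (71.1 to 82.6) in splenic cells, a ratio of 3.24 (2.95 to 3.56). Zbtb7b was at 15.5 CPM (12.3 to 19.3) and 20.4 CPM (17.6 to 23.6), a ratio of 0.759 (0.575 to 0.993). The upper bound of this ratio lies just under 1, so the difference in Zbtb7b is at the edge of counting error. The log2 ratio was -0.40 (-0.80 to -0.01), and its interval included 0 with all deposited barcodes (-0.70 to 0.03) and with every cell thinned (-1.02 to 0.11). Its 78 intestinal and 187 splenic UMIs limit what can be said of it.

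A gene was counted as higher or lower when its CPM, with a pseudocount of 10, differed at least 2-fold between the tissues, among genes with at least 50 UMIs in all. By this rule 3 of the 5 genes (Cd8a, Cd8b1 and Runx3) were higher in the small intestine and 0 were lower, while 4.44% of the 9032 genes tested were higher and 5.82% lower. Cd8a, with a log2 ratio of 4.40 on this scale, was above 99.98% of these genes, Cd8b1 (2.77) above 99.7%, Runx3 (1.58) above 98.4%, Cd4 (0.91) above 94.4% and Zbtb7b (-0.26) above 31.7%.

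**Figure D1:**
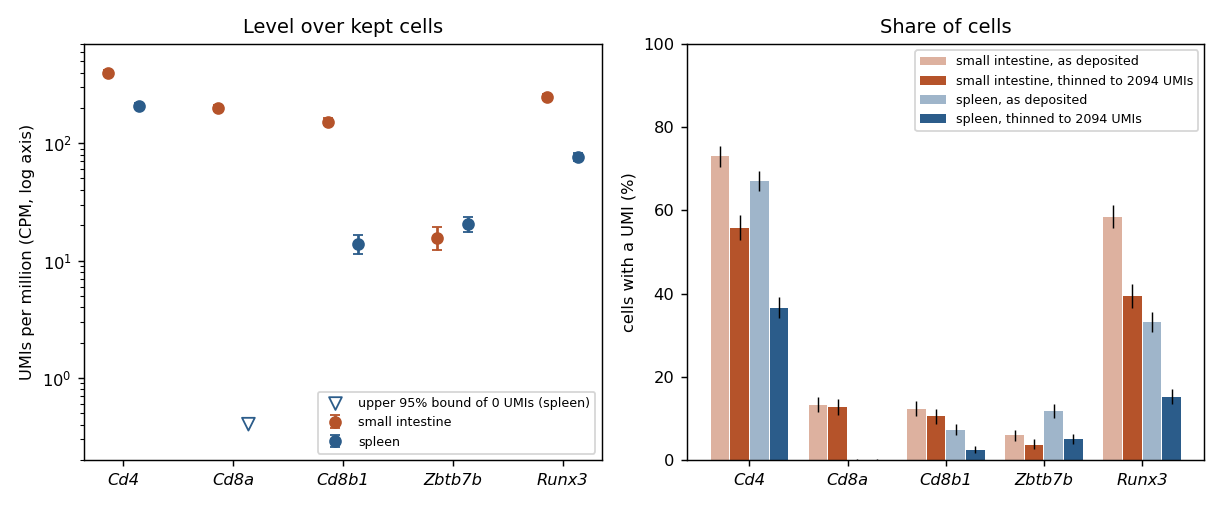
Left, level of each gene in CPM (log axis), with exact 95% counting intervals; the open triangle is the upper bound of Cd8a in the spleen, which had 0 UMIs. Right, share of cells with at least 1 UMI, as deposited (pale) and at 2094 UMIs per cell (dark). Cd8a is seen in 12.6% of intestinal and 0% of splenic cells at equal depth.

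The shares of cells followed the levels once depth was equal. Cd4 was detected in 73.1% of intestinal and 67.1% of splenic cells as deposited, and in 55.9% (52.9 to 58.8) and 36.5% (34.0 to 39.1) at equal depth. A cell without a Cd4 UMI in these sorted libraries is thus frequent, and at this depth it cannot be read as a cell without CD4.

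Runx3 was detected in 58.5% and 33.0% of cells as deposited and in 39.4% (36.6 to 42.3) and 15.2% (13.3 to 17.1) at equal depth. Zbtb7b was detected in 5.87% and 11.6% of cells as deposited, and in 3.66% (2.65 to 4.91) and 5.01% (3.94 to 6.26) at equal depth, where the intervals overlap. The Zbtb7b-positive cells of the small intestine had 1 UMI each in 72 of 75 cells.

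Cd8a was detected in 13.2% of intestinal cells as deposited and 12.6% (10.8 to 14.7) at equal depth. It was detected in 0 of 1468 splenic cells, which allows a share of cells with a UMI of up to 0.204% by a limit of 3 counts, with an exact upper bound of 0.251%. Cd8b1 was detected in 12.2% of intestinal and 7.15% of splenic cells as deposited, and in 10.4% (8.74 to 12.4) and 2.43% (1.70 to 3.37) at equal depth. The intestinal shares of both Cd8 genes thus stayed close to their deposited values, while the splenic share of Cd8b1, in which 83.8% of the positive cells had a single UMI, was lower at equal depth.

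Joint detection was examined next, to see in which cells the CD8 RNAs lay. In the small intestine, Cd8a and Cd8b1 were mostly found in the same cells. Of 1277 cells, 121 had both RNAs, 48 had Cd8a without Cd8b1, 35 had Cd8b1 without Cd8a and 1073 had neither. Cd8b1 was detected in 71.6% (64.2 to 78.3) of cells with Cd8a and in 3.16% (2.21 to 4.37) of cells without it, and at equal depth in 66.2% (57.9 to 73.8) and 2.39% (1.54 to 3.54). Of the 116 cells with at least 3 Cd8a UMIs, 102 had Cd8b1, and of the 91 cells with at least 3 Cd8b1 UMIs, 89 had Cd8a. The intestinal cells rich in CD8 RNA thus carried RNA of both chains, with few exceptions.

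Cells with both RNAs held several molecules of each. Among the 49 such cells that also had Cd4, Cd8a ranged from 1 to 22 UMIs with a median of 7, and Cd8b1 from 1 to 18 with a median of 5. Among the 72 without Cd4, Cd8a had a median of 6 and Cd8b1 a median of 5. Cells with Cd8b1 but no Cd8a had a single Cd8b1 UMI in 31 of 35 cells and at most 3. The 48 cells with Cd8a but no Cd8b1 had a median of 1 Cd8a UMI and at most 11. These groups were made from the same UMIs, so their levels of Cd8a and Cd8b1 are no separate finding.

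**Figure D2:**
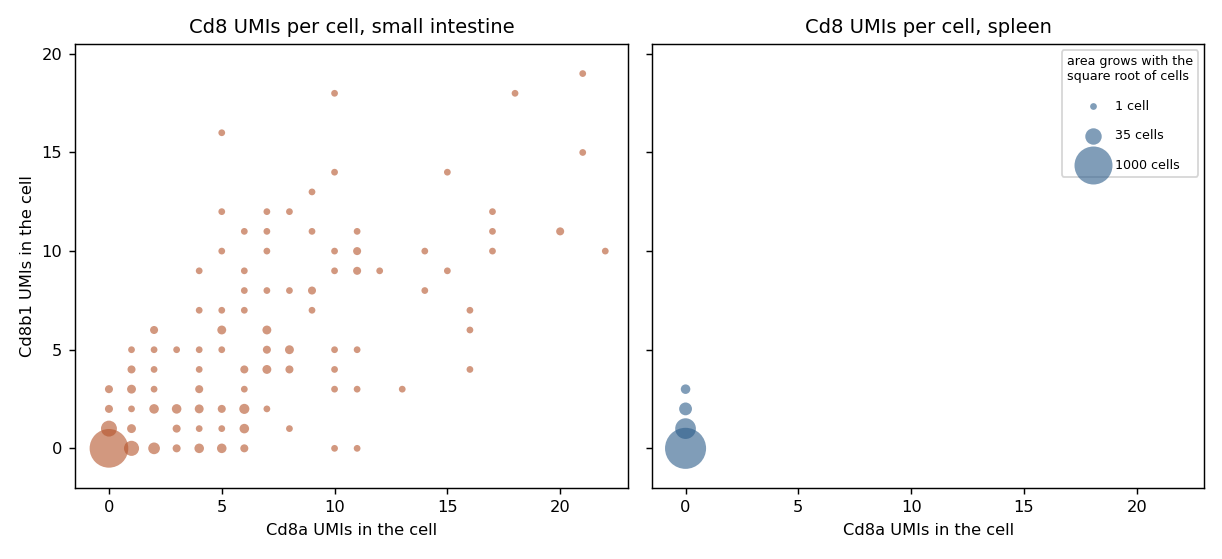
UMIs of Cd8a (x axis) and Cd8b1 (y axis) in each cell; the area of a point grows with the square root of the number of cells at that position. Intestinal cells spread over both axes, up to 22 Cd8a UMIs, while the splenic cells lie on the Cd8b1 axis, with at most 3 UMIs.

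Cd4 was less often detected in the intestinal cells that had both Cd8 RNAs. It was seen in 49 of 121 (40.5%, 31.7 to 49.8) of these cells and in 825 of 1073 (76.9%, 74.2 to 79.4) of the cells with neither. At equal depth it was seen in 21.9% (14.1 to 31.5) and 59.9% (56.8 to 63.0). The level pointed the same way, at 124 CPM (98.0 to 154) against 445 CPM (425 to 466), a ratio of 0.278 (0.219 to 0.348). Cells with Cd8a only lay between these, with Cd4 at 299.9 CPM (223 to 395). In cells with Cd8b1 only, Cd4 was at 449 CPM (347 to 573), close to the cells with neither.

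RNA of all 3 coreceptor genes was detected together in 49 intestinal cells (3.84%, 2.85 to 5.04), and in 21 cells (1.83%) at equal depth. These 49 cells had a median of 5143 UMIs, against 3988.5 in the 72 cells with both Cd8 RNAs and no Cd4. Depth thus moved with this class, and doublets were called in 3 of the kept cells of each library. With called doublets left out, Cd4 was detected in 21.9% (14.1 to 31.5) of the intestinal cells with both Cd8 RNAs at equal depth. This is the same value as with them, since no called doublet lay among these cells at equal depth, so it is no check on doublets. The 121 cells as deposited are another set, which can hold a called doublet. There, the log2 ratio of Runx3 to cells with neither moved from 0.33 (0.10 to 0.56) to 0.31 (0.08 to 0.54) without called doublets. The part of depth and doublets in the class with all 3 RNAs was not tested.

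In the spleen, 105 of 1468 cells had Cd8b1 (7.15%, 5.89 to 8.59), and none of them had Cd8a. Their Cd8b1 UMIs were few, with 1 UMI in 88 cells, 2 in 13 and 3 in 4. Cd4 was detected in 79 of these 105 cells (75.2%, 65.9 to 83.1) and in 906 of the 1363 others (66.5%, 63.9 to 69.0). By level, Cd4 was at 197 CPM (167 to 231) in the cells with Cd8b1 and 209 CPM (199.6 to 219) in the others, a ratio of 0.942 (0.792 to 1.11). A difference in Cd4 level between splenic cells with and without Cd8b1 was thus not detectable, as in the intestinal cells with Cd8b1 only and unlike the intestinal cells with both Cd8 RNAs.

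The depth of these splenic cells differed from the rest, with a median of 6627 UMIs against 5332. At equal depth 35 of 1438 cells (2.43%, 1.70 to 3.37) had Cd8b1. Cd4 was then in 11 of these 35 cells (31.4%, 16.9 to 49.3) and in 36.6% (34.1 to 39.2) of the others, the opposite order to the deposited shares, with a ratio of levels of 0.671 (0.333 to 1.21). The share as deposited was 2.45% in the 368 shallowest splenic cells and 10.1% in the 367 deepest, while the level was 10.7 CPM (5.52 to 18.7) and 11.7 CPM (8.56 to 15.6). The share thus moved with depth more than the level did.

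**Figure D3:**
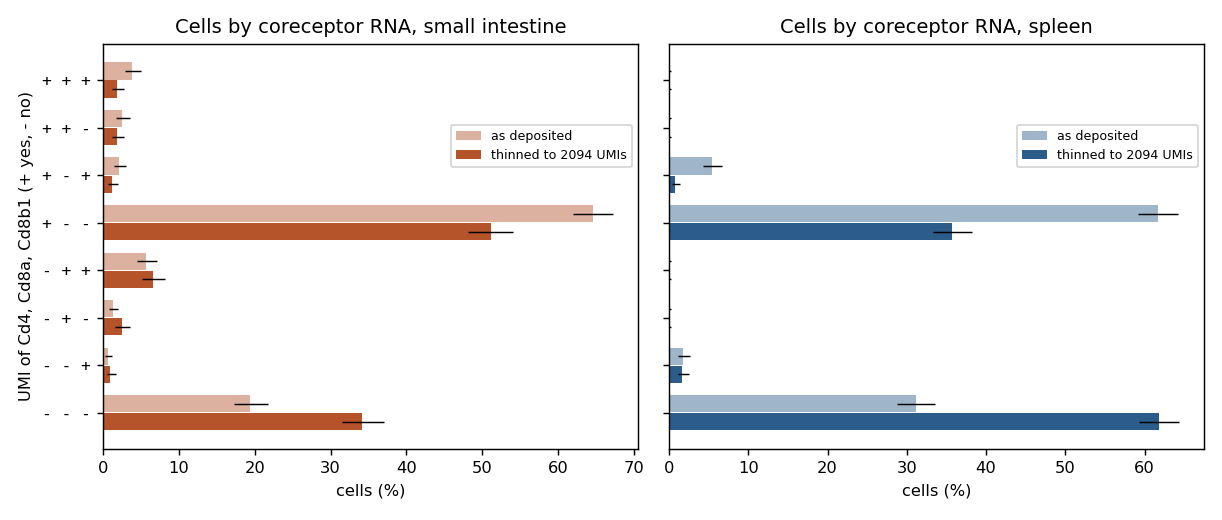
Share of cells in each of the 8 combinations of detected Cd4, Cd8a and Cd8b1 RNA, as deposited (pale) and at 2094 UMIs per cell (dark), with exact 95% intervals. Splenic cells fall only into the combinations without Cd8a, with 79 Cd4 and Cd8b1 cells as deposited.

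The ratio of the Cd8 RNAs set the tissues apart in the same way. Cd8b1 made up 43.2% (40.9 to 45.5) of all intestinal Cd8a and Cd8b1 UMIs and 100% (97.1 to 100) of the splenic ones, with 126 UMIs of Cd8b1 and 0 of Cd8a. In the intestinal cells with Cd4 it made up 44.1% (40.6 to 47.7) and in those without 42.5% (39.4 to 45.6). Among intestinal cells with 1 or 2 Cd8b1 UMIs, 32 of 65 (49.2%, 36.6 to 61.9) had Cd8a, against 0 of 101 such cells in the spleen. Among all 1738 splenic barcodes, before any filter, 1 barcode had Cd8a, with 3 UMIs. It also had Cd8b1 but no Cd4, and it was left out by the quality filter.

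Low Cd8b1 without Cd8a was not limited to the spleen. Over the 1108 intestinal cells without Cd8a, Cd8b1 was at 9.72 CPM (6.97 to 13.2), against 13.8 CPM in the spleen, and the ratio of spleen to small intestine was 1.42 (0.989 to 2.07). At equal depth these levels were 15.2 and 12.3 CPM, a ratio of 0.807 (0.489 to 1.34). The cells without Cd8a were chosen after thinning there, so intestinal cells that lost their Cd8a UMIs counted among them. The kept splenic cells had no Cd8a to lose, so the ratio at equal depth is no second check of the first. As deposited, too, an intestinal cell whose Cd8a RNA was not captured would count among the cells without it. Of the 35 intestinal cells with Cd8b1 but no Cd8a, 13 lay in cluster 1 of the clusters described below. That cluster held 114 of the 121 cells with both. The interval as deposited includes 1, so a difference between tissues was not detectable in these cells. The part of missed Cd8a in this ratio was not tested. Both libraries were of sorted CD4+ T cells, and a background share of Cd8b1 from free RNA was not measured.

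The clusters of each library, made without the 5 genes, were used to see whether low Cd8b1 was spread evenly. In the spleen, Cd8b1 was found in all 7 clusters and Cd8a in none. Its level was highest at 27.0 CPM (17.6 to 39.6) in cluster 3, which was led by Pdcd4, Malat1 and Klf2, a factor of resting T cells. It was lowest at 4.45 CPM (1.21 to 11.4) in cluster 6, led by the chemokine gene Ccl5 and by Nkg7 and Ccl4. The intervals of these clusters do not overlap, and cluster 3 was the shallower one, with a median of 3939 UMIs against 4869. Of the 105 Cd8b1 cells, 22 lay in cluster 3 and 3 in cluster 6, and the largest number, 27, in cluster 2, which was led by the activation receptor genes Tnfrsf9, Tnfrsf4 and Ctla4.

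In the small intestine, CD8 RNA was concentrated in 1 of 5 clusters. Cluster 1, with 377 cells (29.5%) and led by Gzma, Cd7, Ccl5, Gzmb and Cd8a itself, held 94.8% of the Cd8a and 93.4% of the Cd8b1 UMIs, and 114 of the 121 cells with both. Its Cd8a level was 640.1 CPM (600.2 to 682) and its Cd8b1 level 479 CPM (444 to 515). Cd4 was lowest there at 302 CPM (274 to 331) and Runx3 highest at 322 CPM (294 to 353), while the other clusters ranged from 314 to 508 CPM for Cd4 and from 166 to 239 CPM for Runx3. The Cd4 interval of cluster 1 overlapped that of cluster 5.

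Cluster 4 of the small intestine, led by Ccl5, Lag3 and Plac8, resembled the spleen in its CD8 RNA. It had 0 Cd8a UMIs in 204 cells, which allows an upper bound of 4.95 CPM, and 13 Cd8b1 UMIs in 10 cells, or 17.4 CPM (9.28 to 29.8). Its Cd4 level was the highest of the intestinal clusters at 508 CPM (458 to 562), with an interval that overlaps those of clusters 2 and 3, and Zbtb7b was at 22.8 CPM (13.3 to 36.5). Of the 35 intestinal cells with Cd8b1 but no Cd8a, 10 lay in this cluster and 13 in cluster 1. The cluster was singled out after its values were seen.

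The lineage factors also varied among the splenic clusters. Runx3 was at 118 CPM (98.8 to 140) in cluster 5, led by S100a6 and Lgals1, and 120 CPM (98.5 to 145) in cluster 6. The other 5 clusters ranged from 47.8 to 79.7 CPM, and only the interval of cluster 7 reached into those of clusters 5 and 6. Zbtb7b was highest in cluster 5 as well, at 35.5 CPM (25.2 to 48.5), against 14.5 CPM (9.28 to 21.6) in cluster 2. The Zbtb7b interval of cluster 5 overlapped those of clusters 1, 3, 6 and 7. Cluster 6, with Runx3 at 120 CPM, had Zbtb7b at 16.7 CPM (9.33 to 27.5), so the factors did not rank these clusters alike. Cd4 was at 275 to 297 CPM in clusters 1, 5 and 6 and at 150 to 179 CPM in the other 4.

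**Figure D4:**
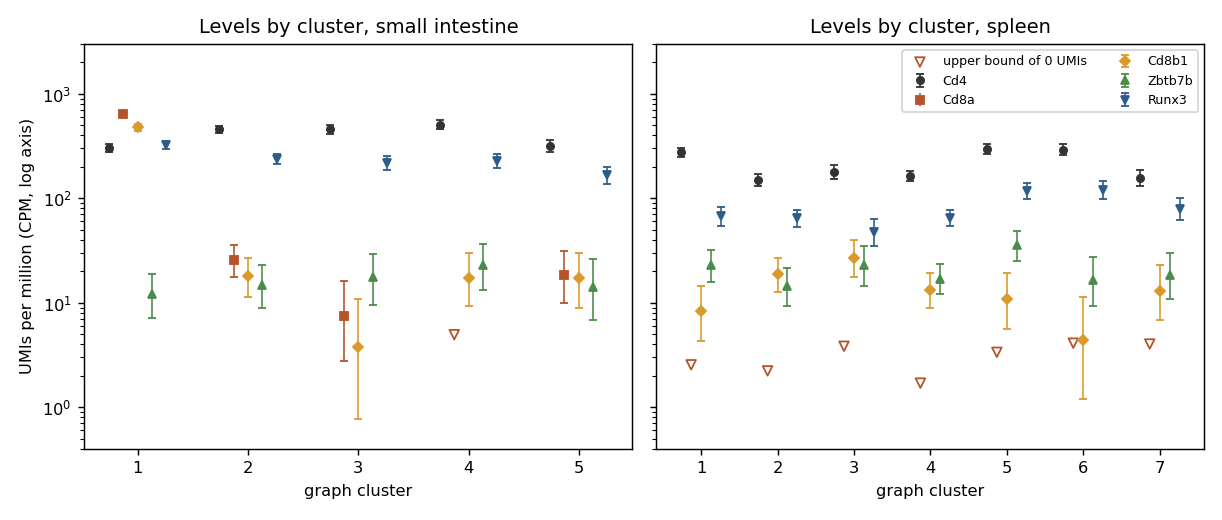
Level of each gene in CPM (log axis) in the 5 intestinal and 7 splenic clusters, with exact 95% counting intervals; open triangles are upper bounds for Cd8a where it had 0 UMIs. Cd8a and Cd8b1 are high in intestinal cluster 1 (640.1 and 479 CPM), and splenic Cd8b1 ranges from 4.45 to 27.0 CPM.

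The factors were then compared between cells of the same library grouped by detected CD8 RNA. In the small intestine, Zbtb7b was scarce in cells with Cd8a. It had 2 UMIs in the 169 cells with Cd8a, or 2.46 CPM (0.298 to 8.88), and 76 UMIs in the 1108 cells without, or 18.0 CPM (14.2 to 22.6), a ratio of 0.136 (0.0162 to 0.510). At equal depth it was detected in 1 of 145 and in 41 of 1004 cells, a ratio of levels of 0.161 (0.00399 to 0.946). For cells with both Cd8 RNAs against neither, the ratio was 0.172 (0.0205 to 0.646) as deposited and 0.243 (0.00601 to 1.43) at equal depth, where the interval includes 1. In the 48 cells with Cd8a only it had 0 UMIs, which allows up to 22.1 CPM. In the 35 cells with Cd8b1 only, it had 3 UMIs, at 20.7 CPM (4.28 to 60.6).

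The ratio of Zbtb7b was below 1 both among cells with and among cells without Cd4, on very few molecules. With Cd4, the cells with both Cd8 RNAs had 1 UMI of Zbtb7b (3.36 CPM) against 63 UMIs (19.4 CPM) in cells with neither, a ratio of 0.173 (0.00431 to 0.9997). Without Cd4 there was 1 UMI (2.86 CPM) against 10 (12.1 CPM), a ratio of 0.236 (0.00545 to 1.66). The second interval includes 1, and at equal depth both do, with upper bounds of 4.44 and 1.97.

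Runx3 was somewhat higher in intestinal cells with both Cd8 RNAs as deposited. It was at 301 CPM (261 to 347) in cells with both Cd8 RNAs and 239 CPM (225 to 255) in cells with neither, a ratio of 1.26 (1.07 to 1.47). At equal depth the ratio was 1.18 (0.883 to 1.54), with an interval that includes 1. As deposited, the ratio was 1.12 (0.878 to 1.41) among cells with Cd4 and 1.39 (1.09 to 1.75) among cells without. Cells with Cd8a only had 294 CPM (217 to 389), a ratio of 1.23 (0.902 to 1.64). Those with Cd8b1 only had 221 CPM (151 to 312), a ratio of 0.924 (0.629 to 1.31). Of the 747 intestinal cells with Runx3, 607 (81.3%, 78.3 to 84.0) had neither Cd8 RNA, against 84.0% (81.9 to 86.0) of all intestinal cells.

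In the spleen, neither factor separated cells with and without Cd8b1. Zbtb7b was at 27.6 CPM (17.1 to 42.2) and 19.8 CPM (16.9 to 23.03), a ratio of 1.40 (0.841 to 2.20). Runx3 was at 84.1 CPM (64.8 to 107) and 76.0 CPM (70.3 to 82.2), a ratio of 1.11 (0.842 to 1.43). At equal depth Zbtb7b had 0 UMIs in the 35 cells with Cd8b1 and was at 25.5 CPM in the others, with an upper bound of 2.02 for the ratio. Runx3 then had a ratio of 0.825 (0.265 to 1.95). Both ratios thus lay above 1 as deposited and below 1 at equal depth. All these intervals include 1, and they do not show that the levels were equal.

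**Figure D5:**
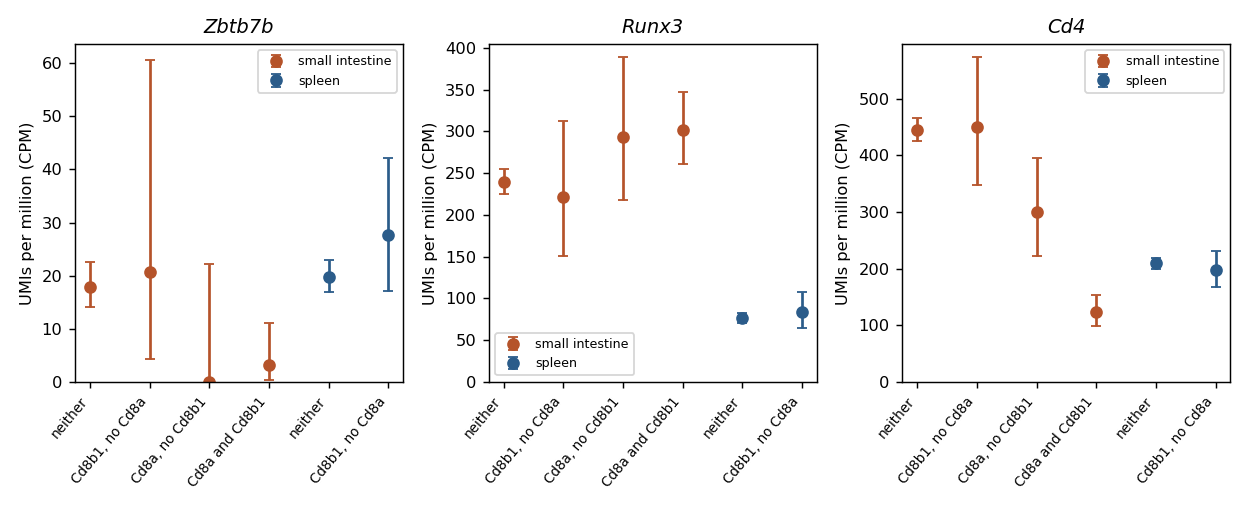
Levels of Zbtb7b, Runx3 and Cd4 in CPM in cells grouped by detected Cd8a and Cd8b1 RNA, as deposited, with exact 95% counting intervals. In the small intestine Zbtb7b was at 17.9 CPM in cells with neither and 3.09 CPM in cells with both, and Cd4 at 445 and 124 CPM.

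Genes around the coreceptors were described from lists of pathway genes. On the scale with a pseudocount of 10 CPM, on which 4.44% of all genes tested were higher and 5.82% lower, 7 of the 9 CD8 lineage and cytotoxic genes tested were at least 2-fold higher in the small intestine and 0 lower, with a median log2 ratio of 2.23 against -0.01 over all genes tested. Klrd1, an NK cell receptor gene, was at 364 and 9.83 CPM in small intestine and spleen, Cd7 at 546 and 20.98 CPM, and Itgae, which encodes the integrin CD103 that binds epithelial E-cadherin, at 171 and 4.26 CPM. The lowest ratios of the list on this scale were those of Prf1 (28.2 and 3.28 CPM), Prdm1 (86.8 and 71.2 CPM) and Tbx21 (31.4 and 40.0 CPM).

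Of the 15 regulators of coreceptor genes and lineage choice, 0 were higher and 3 were lower, beside 4.44% and 5.82% of all genes tested. These were Hdac2 (23.1 and 57.7 CPM), Lef1 (17.9 and 75.3 CPM) and Tcf7 (9.34 and 132 CPM), of which Lef1 and Tcf7 are factors of resting T cells. Runx1 (70.7 and 30.6 CPM), Gata3 (58.6 and 27.97 CPM) and Ets1 (890.1 and 557 CPM) had the highest ratios of the list without reaching 2-fold on this scale. Of the 7 coreceptor signalling genes 0 reached 2-fold, which is close to the shares of all genes, and Lck, the kinase that the coreceptors carry, was at 678 and 684 CPM. The same count of 0 was found for the 7 coreceptor ligand genes tested. Of the 5 helper lineage genes, 0 were higher and 2 were lower in the small intestine by this rule. The 2 were Il2ra (23.6 and 156 CPM) and Foxp3 (7.55 and 51.1 CPM). Cd40lg (41.1 and 17.0 CPM) had the highest ratio of the list without reaching 2-fold on this scale. Cd5 was at 139 and 164 CPM and Cd28 at 322 and 541 CPM.

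Within the small intestine, the same lists were read between the 121 cells with both Cd8 RNAs and the 1073 with neither. Cd40lg, the ligand by which helper T cells activate B cells, had 1 UMI in the cells with both (1.55 CPM) and a ratio of 0.0321 (0.000809 to 0.181). The costimulatory receptor gene Cd28 had a ratio of 0.408 (0.328 to 0.503) and Runx1 one of 0.259 (0.136 to 0.449). Klrd1 had a ratio of 4.34 (3.93 to 4.79), Itgae one of 3.19 (2.74 to 3.71), Gzmk one of 2.50 (2.23 to 2.81) and Prf1, which encodes perforin, one of 3.66 (2.53 to 5.25). Lck was at nearly the same level in both groups, with a ratio of 0.954 (0.860 to 1.06). These genes were named after their values were seen, and the whole lists differed less. Summed over its 11 genes, the CD8 lineage and cytotoxic list was at 8666 CPM in cells with both and 4535 CPM in cells with neither. Nkg7 alone gave 17698 of the 26124 UMIs of this list over all intestinal cells. The 5 helper lineage genes were at 229 and 589 CPM and the 15 regulators at 1731 and 2387 CPM.

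The genes whose pattern was most like that of each coreceptor were found at equal depth, as the 3 highest and 3 lowest ratios between cells with and without its RNA. For Cd8a in the small intestine, over 145 and 1004 cells, the highest were Cd8b1, Cd7 (1861 and 291 CPM) and the NK receptor gene Klrc2 (161 and 17.6 CPM). The lowest were the cytokine gene Il17f (0 and 150 UMIs), Cd74 (3.29 and 94.7 CPM) and Maf, a factor that acts on the Il10 gene (72.5 and 607 CPM). For the cells with both Cd8 RNAs against neither, the highest were Klrc2, Car2 and Cd7 and the lowest Maf (49.7 and 608 CPM), Il18r1 (0 and 190 UMIs) and Ramp3.

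Cells with Cd8a only shared Cd7 with the cells that had both. Cd7 was at 1920.0 CPM there, against 274 CPM in cells with neither, next to Mt2 and Car2, which rested on 9 and 7 UMIs. As deposited, over 48 and 1073 cells, Cd7 kept a ratio of 6.28 (5.51 to 7.13), while Mt2 had one of 1.82 (0.573 to 4.47) and Car2 one of 0.719 (0.0853 to 2.70), in the opposite direction. The group was made anew after thinning, so its 49 cells at equal depth are not the same set as the 48 cells as deposited. Part of these moves can thus come from which cells were in the group, which was not tested. Cd74, Phlda1 and Il17f had 0 UMIs each in these 49 cells at equal depth. The genes listed for the 24 cells with Cd8b1 only (Hist1h2ap, Ncbp2 and Psmd1, and Smco4, Romo1 and Rdx) rested on 0 to 13 UMIs in that group.

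For Cd8b1 in the small intestine the genes were Cd8a, Klrc2 and Car2 on the high side and Il17f, Cd74 and Ramp3 on the low side, close to those of Cd8a. For Cd4 in the small intestine the lowest ratios were those of Cd74 (4.46 and 183 CPM), Cd8b1 (45.4 and 214 CPM) and Cd8a (69.9 and 304 CPM), while the highest, Ap3d1, Surf2 and Mettl7a1, were all under 3-fold. As deposited, the ratio was 1.21 for Ap3d1, 1.77 for Surf2 and 2.03 for Mettl7a1. Cd74 belongs to MHC class II presentation and is abundant in B cells and dendritic cells. It was thus low both in cells with Cd4 and in cells with Cd8a.

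For splenic Cd8b1, over 35 and 1403 cells, the highest ratios (Bnip3, Ift80 and Zkscan14) rested on 6 UMIs each. The lowest were Ccl3 (0 and 442 UMIs), Ccl5 (287 and 3632 CPM) and Clptm1l (0 and 276 UMIs). As deposited, over 105 and 1363 cells, Ccl5 was at 1095 and 2955 CPM, a ratio of 0.370 (0.345 to 0.397), and Ccl3 at 10.5 and 210 CPM, a ratio of 0.0501 (0.0216 to 0.0989), while Clptm1l had a ratio of 0.953 (0.731 to 1.22). For splenic Cd4, Spp1 was highest (97.3 and 1.05 CPM), followed by Il12rb2 and Serpinb1a, and Rpp30, Foxp3 (23.7 and 56.0 CPM) and Uggt1 were lowest. As deposited, Spp1 was at 30.4 and 0.780 CPM, and the ratio was 1.48 for Il12rb2 against 2.82 at equal depth, 0.789 for Rpp30 against 0.254, 0.809 for Foxp3 against 0.423 and 0.932 for Uggt1 against 0.309.

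For Runx3 in the spleen the highest were Areg (70.1 and 16.4 CPM), the granzyme gene Gzma (134 and 39.9 CPM) and Lgals7, and the lowest Spp1, Ncln and Ldb1. In the small intestine the Runx3 genes were Crebrf, Tubgcp4 and Tsnax, all under 3-fold, and Cd74, Il17f and Il22. Zbtb7b gave Prrt1, Dhrs1 and Rgs19 in the small intestine and Igfbp4, Herc6 and Tmem126b in the spleen, all on 9 to 12 UMIs. Its lowest were Cd74, Elk3 and Polr2e in the small intestine, each with 0 UMIs, and Ccl5 (703 and 3700.2 CPM), Cdkn2c and Hist1h2ap in the spleen. As deposited, the direction turned for Il22 with intestinal Runx3 (ratio 1.03), for Hist1h2ap with splenic Zbtb7b (1.11) and for Hist1h2ap in intestinal cells with Cd8b1 only (0.406). Other ratios came close to 1, such as Tubgcp4 (1.04) and Tsnax (1.06) with intestinal Runx3 and Cdkn2c (0.942) with splenic Zbtb7b. With splenic Runx3, Gzma (2.39), Lgals7 (2.17) and Spp1 (0.141) stayed further from 1. Areg was at 1.59 against 4.26 at equal depth, and Ncln (0.868) and Ldb1 (0.881) came close to 1. The cells in each group also differed between the depths, since the groups were made anew after thinning. These lists therefore describe the thinned cells and are read no further.

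The RNA of Il10, whose eGFP reporter was used for the sort, also differed between the intestinal groups. Il10 was at 279.7 CPM (240.4 to 324) in cells with both Cd8 RNAs, 414 CPM (322 to 524) in cells with Cd8a only, 595 CPM (476 to 734) in cells with Cd8b1 only and 655 CPM (630.3 to 680.3) in cells with neither. At equal depth it was 274 and 653 CPM in cells with both and with neither. In the spleen it was 569 CPM (517 to 625) in cells with Cd8b1 and 467 CPM (453 to 482) in the others as deposited, and 396 CPM (265 to 568) and 442 CPM (418 to 467) at equal depth, where the intervals overlap. Il10 was detected in 56.2% of the intestinal cells with both and 75.0% of those with neither.

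Markers of other cell types were read beside these groups. In the intestinal cells with both Cd8 RNAs, the 3 CD3 genes summed to 4438 CPM, against 4099 CPM in cells with neither. Sox13, Zbtb16, the 4 thymocyte genes and both erythroid genes were at 0, with an upper bound of 5.70 CPM. In cells with neither, Sox13 and the erythroid genes were also at 0, and Zbtb16 and the thymocyte genes were at 0.736 CPM each. These zeros therefore do not tell the groups apart. Of the 3 intraepithelial innate-like genes, Fcer1g and Tyrobp were at 0 and Cd244 gave 30 UMIs, or 46.4 CPM, against 4.91 CPM for the list in cells with neither. Of the 7 myeloid and dendritic genes, 6 were at 0 and the seventh, Itgax, which activated and intraepithelial T cells can also express, gave 22 UMIs, or 34.0 CPM, against 1.47 CPM for the list in cells with neither. B cell genes were at 10.8 and 15.0 CPM, plasma cell genes at 3.09 and 3.93 CPM, epithelial genes at 12.4 and 8.84 CPM and NK cell genes at 9.27 and 5.65 CPM. Without cells that had a UMI of a B cell, plasma cell, myeloid or epithelial marker, 90 of 1158 cells (7.77%) had both Cd8 RNAs, against 9.48% with them. Itgax was among these markers and was detected in 18 of the 121 cells with both, so the cells left out need not be of other cell types. At equal depth the shares were 6.76% and 8.36%.

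In the splenic cells with Cd8b1, the B cell, myeloid and epithelial marker lists were close to those of the other cells. The CD3 genes summed to 3254 and 3473 CPM, the B cell genes to 5.26 and 6.55 CPM, the myeloid genes to 6.57 and 7.27 CPM and the epithelial genes to 34.2 and 31.5 CPM. The plasma cell genes, Sox13 and Zbtb16 were at 0 in the cells with Cd8b1, with an upper bound of 4.85 CPM. In the other cells they were at 1.31, 0 and 3.69 CPM, so these zeros do not tell the groups apart. The thymocyte genes gave 2 UMIs, with Rag1 and Rag2 at 0. The cycling genes were higher, at 1933 CPM (1836 to 2035) against 1621 CPM (1594 to 1648). The cells with Cd8b1 were also deeper, with a median of 6627 UMIs against 5332. Cluster 4, led by Hmgb2 and Stmn1, was the deepest splenic cluster, with a median of 9687.5 UMIs. It held 25 of the 105 cells with Cd8b1, though its Cd8b1 level was 13.4 CPM (8.96 to 19.2). These lists were not read at equal depth, and the part of depth in such differences was not tested. Summed over 11 genes, the CD8 lineage and cytotoxic list was lower, at 1053 CPM (981 to 1128) against 1346 CPM (1321 to 1371). Nkg7 alone gave 10210 of the 12096 UMIs of this list over all splenic cells, so the sum mostly reads that gene. A UMI of any of its genes was found in 73.3% and 72.6% of cells. Without cells that had a marker of B cells, plasma cells, myeloid cells or epithelium, 84 of 1218 cells (6.90%) still had Cd8b1 and no Cd8a.

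Within the small intestine, the CD8 RNAs also moved with depth. With the cells in 4 equal parts by depth, Cd8a was at 112, 137 and 118 CPM in the 3 shallower parts and at 321 CPM (296 to 347) in the deepest, and Cd8b1 was at 66.9 CPM in the shallowest and 248 CPM in the deepest. Cd4 and Runx3 went the other way, Cd4 from 459.5 CPM (411 to 512) to 342 CPM (317 to 369) and Runx3 from 363 CPM (319.6 to 410.1) to 203 CPM (184 to 224). The part of depth in the differences between the groups by CD8 RNA was not tested beyond the values at equal depth.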

How the data were processed

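The authors deposited, for each library, whole-number UMI counts by gene and barcode with no normalization, made with Cell Ranger from trimmed reads that were aligned to Mm10. The submitters' processing notes name Cell Ranger and Trimmomatic, whose versions are not given in the sources used here. The libraries held 1474 barcodes and 5693395 UMIs (small intestine) and 1738 barcodes and 11103530 UMIs (spleen).

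Cells were dropped (135 and 90) if their log UMIs or log genes lay over 3 MAD under the median, or their mitochondrial share as far over it. Cells placed in G2/M by cyclone (scran 1.30.0, 1000 iterations) were dropped next (62 and 180). Clusters came from Louvain clustering of a graph of shared neighbours (bluster 1.12.0, 10 neighbours) on 20 principal components of the highly variable genes, with the 5 genes left out. Scrublet (scanpy 1.11.5) called 4 doublets in each library, of which 3 passed the filters on cells and were kept. Thinning went to the 10th percentile of UMIs of the shallower library, with a fixed seed for each cell. The software was Python 3.11.15 with numpy 2.4.6, matplotlib 3.10.9 and scipy 1.17.1, and R 4.3.3 with scuttle 1.12.0. The thinning and the ratio intervals were checked on simulated data. Its counts were drawn independently, so it cannot test the intervals for genes whose UMIs gather in few cells.

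Levels have exact Poisson, shares Clopper-Pearson and ratios exact conditional binomial intervals at 95%. UMIs of 1 cell are not independent, so these cover counting error only. A share of 0 allows up to 3 counts of the total. The named genes were the 5 genes, of each list the 3 with the highest and the 3 with the lowest ratio between tissues, for each gene and group the 3 highest and 3 lowest by CPM ratio at equal depth (pseudocount 10, at least 50 UMIs), and leading genes of clusters. Genes compared between intestinal cells with both Cd8 RNAs and with neither were named from the lists after their values were seen. The genes and lists were chosen with earlier results of these data known. Other cell sets, depths, seeds, detection limits and clusterings were tried. Other data of the study were not analysed here.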

Additional observations from a re-analysis of the deposited data

How the results depend on the processing

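Of the recomputed values, 197 lay within the counting interval of the value reported and 35 outside it, and no log2 ratio whose interval left out 0 changed sign. The interval of the log2 ratio of Zbtb7b between the tissues (-0.80 to -0.01) included 0 with all deposited barcodes (-0.70 to 0.03) and with every cell thinned (-1.02 to 0.11), as did those of Zbtb7b (-7.38 to 0.52) and Runx3 (-0.18 to 0.63) in intestinal cells with both Cd8 RNAs with every cell thinned. No filter on cells (all deposited barcodes, G2/M cells kept, or called doublets left out) moved any of them outside it. The share averaged over all possible thinnings, an alternative chosen after seeing the data, moved none outside it. Of 5 other thinning seeds, seed 5 gave Cd4 in 13.8% of the intestinal cells with both Cd8 RNAs. With the mean of each cell's CPM, the log2 ratio of Cd8b1 between the tissues was 3.07 in place of 3.47.

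Thinned to the 25th percentile (2886 UMIs), the shares of intestinal and splenic cells were 65.6% and 47.2% for Cd4 and 46.3% and 19.01% for Runx3, Cd8b1 was in 12.4% and 4.34% and Zbtb7b in 6.51% of splenic cells. Both Cd8 RNAs were in 10.1% of intestinal cells, and Cd4 in 70.4% of those with neither. Splenic cells with Cd8b1 and no Cd8a were 4.34%. Without thinning, Cd4 was in 40.5% of intestinal cells with both Cd8 RNAs and 76.9% with neither, and splenic cells with Cd8b1 and no Cd8a were 7.15%.

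When 2 UMIs were needed, the intestinal and splenic shares were 23.3% and 7.65% for Cd4, 6.35% and 0.139% for Cd8b1, 0.174% and 0.209% for Zbtb7b and 10.4% and 1.81% for Runx3. Cd8a was in 8.79% of intestinal cells and both Cd8 RNAs in 4.96%, with Cd4 in 3.51% of these and 25.8% of cells with neither. Cells with Cd8b1 and no Cd8a were 0.435% of intestinal and 0.139% of splenic cells. The log2 ratios to cells with neither were read as deposited, where this intestinal group held 2 cells with 2 Cd8b1 UMIs and 2 with 3. The log2 ratio was 1.84 (-3.48 to 4.37) for Zbtb7b in place of 0.21. For Runx3 it was 1.27 (0.14 to 2.21) in place of -0.11. With cells carrying B cell, plasma cell, myeloid or epithelial markers left out, Itgax among them, both Cd8 RNAs were in 6.76% of intestinal cells. With every cell thinned, the log2 ratio of Runx3 in splenic Cd8b1 cells was -0.28 in place of 0.15, with intervals that include 0. With clusters from all highly variable genes, the top intestinal cluster held 84.9% of Cd8a and 89.7% of Cd8b1 UMIs. The cause of these moves was not tested.

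No paired analysis was possible because there was 1 library per tissue, and for the same reason no replicate was left out.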
